A study of Homo sapiens with 12 samples.

Results

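Human induced microglia-like cells (iMGLs) with a knockout (KO) of MEF2C were stimulated with LPS in the presence of BMS265246, and their transcriptomes were set against those of the same kind of cells stimulated with LPS alone. The comparison takes 4 of the 12 libraries of the series, chosen by their labels: 2 of KO cells given LPS and BMS265246 (KO LPS BMS) and 2 of KO cells given LPS (KO LPS). All 4 libraries carry the knockout of MEF2C, whose product binds DNA as one of the MEF2 factors and takes part in restraining microglial activation. The compound is an inhibitor of cyclin-dependent kinases, and the title of the series names CDK2 as the kinase inhibited. The other 8 libraries, used here as context, were 3 of KO cells without LPS (KO), 2 of unedited cells with LPS (WT LPS) and 3 of unedited cells without it (WT), all differentiated from the H1 line of human pluripotent stem cells. Libraries without LPS were given vehicle according to the labels. The compound was given only to KO cells and only together with LPS, so its effect in unedited or unstimulated cells was not measured. The sources used here give neither doses and times nor the kind of MEF2C edit and the number of edited clones. Replicates are named as biological replicates in the labels, without saying whether they came from separate differentiations, and p-values cover the spread between these cultures only.

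LPS, a component of the outer membrane of Gram-negative bacteria, is sensed on microglia by TLR4 with its co-receptor CD14. Signalling through the adaptors MyD88 and TRIF activates NF-kB, AP-1 and interferon regulatory factors, which switch on cytokine and chemokine genes in waves, many of them encoding short-lived transcripts. Cyclin-dependent kinases (CDKs) serve 2 broad roles: CDK2 and CDK1 drive DNA replication and mitosis, whereas CDK7 and CDK9 phosphorylate RNA polymerase II and its partners during transcription. CDK9 with cyclin T forms P-TEFb, which is held inactive by HEXIM1 and the 7SK RNA until it is needed.

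The 4 libraries held 14575747 and 17591433 counts for KO LPS BMS cells, and 16516753 and 15881677 counts for KO LPS cells. Levels are given as CPM (counts scaled to a common library total) on libraries scaled by TMM, so each value is relative to the rest of its library, and in bulk RNA fewer cells of a type and less RNA per cell cannot be told apart. KO LPS replicate 2 stood apart from its partner: 60 of 10472 genes with a mean of at least 5 CPM were 2-fold or more apart between the 2 KO LPS libraries, against 9 between the 2 KO LPS BMS libraries. FTH1, encoding ferritin heavy chain, had 2056 and 1189 CPM in KO LPS BMS cells, and 1358 and 3218 CPM in KO LPS cells. RN7SL2 had 34.7 and 15.6 CPM in KO LPS BMS cells, and 17.4 and 120 CPM in KO LPS cells. ENSG00000281181 had 202 and 124 CPM in KO LPS BMS cells, and 109 and 874 CPM in KO LPS cells. The part of these differences between replicates in the results below was not tested. Of 14 microglia and macrophage markers, 13 had enough counts to be tested. CD68 did not, with 0 and 0 CPM in KO LPS BMS cells and 0 and 0.137 CPM in KO LPS cells. How reads were assigned to CD68 is not stated, so these values do not show that the gene is silent. The summed level of 14 microglia and macrophage markers was 8058 and 7481 CPM in KO LPS BMS cells against 7832 and 8593 CPM in KO LPS cells, while 8 pluripotency markers summed to at most 0.410 CPM, with 5 of the 8 at 0 in all 4 libraries. MEF2C itself had 43.7 and 44.1 CPM in KO LPS BMS cells and 45.9 and 46.8 CPM in KO LPS cells (-0.08 ± 0.07 on the log2 scale, adjusted p = 0.39). For context its level was 133 ± 4.01 CPM in KO cells (SD, n = 3), 49.6 and 51.6 CPM in WT LPS cells and 184 ± 7.86 CPM in WT cells (SD, n = 3). The transcript was thus counted in KO cells too, and gene counts cannot show whether protein is made from it.

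BMS265246 was accompanied by a change in nearly every second gene, mostly of small size. Of 16022 genes tested, 7658 (47.8%) were called at an adjusted p under 0.05 by edgeR's quasi-likelihood test, of which 3570 (22.3% of those tested) were higher and 4088 (25.5%) lower in KO LPS BMS cells than in KO LPS cells. Without KO LPS replicate 2, 6996 genes were called. A change of at least 2-fold was called for 1884 genes (11.8%), with 629 higher (3.93%) and 1255 lower (7.83%). The values of the 2 groups did not overlap for 70.4% of genes, and the median log2 fold change over all genes was -0.04. Falls and rises were spread unevenly over expression levels. When protein-coding genes were ranked by mean level and cut into 5 equal groups, in the highest group 46.1% were higher and 21.3% lower, and in the lowest group 8.65% were higher and 17.6% lower. With the same cut by gene span in the genome, the share of genes that fell 2-fold or more was 9.80% in the shortest group and 5.72% in the longest, whereas the share called lower at any size was 26.4% in the shortest and 29.8% in the longest.

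**Figure D1:**
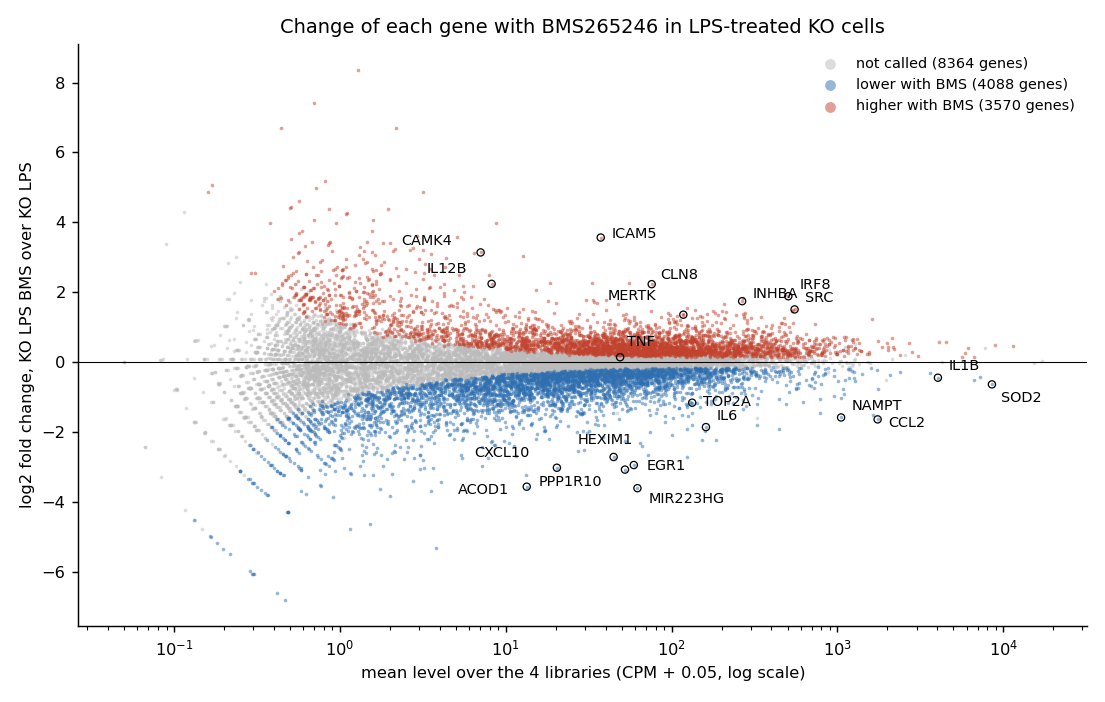
Each point is 1 of 16022 genes, with its mean level over the 4 libraries (CPM + 0.05, log axis) against its log2 fold change in KO LPS BMS over KO LPS cells; blue and red mark the 4088 lower and 3570 higher calls. Circled genes are named in the figure, among them MIR223HG, ACOD1, PPP1R10, CXCL10, EGR1 and HEXIM1 below 0 and ICAM5, CLN8 and IRF8 above 0.

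The steepest falls joined a microRNA host transcript, a regulator of RNA polymerase II phosphorylation, an LPS-induced metabolic enzyme and an immediate early factor. MIR223HG, the host transcript of the myeloid microRNA miR-223, had 9.61 and 9.27 CPM in KO LPS BMS cells against 119 and 111 CPM in KO LPS cells, a log2 fold change of -3.61 ± 0.09 (SE) with an edgeR adjusted p of 1.5e-17. PPP1R10 encodes PNUTS, a nuclear targeting subunit of protein phosphatase 1 that acts on RNA polymerase II and its elongation factors. Its level was 11.9 and 10.4 CPM in KO LPS BMS cells and 90.4 and 96.4 CPM in KO LPS cells (-3.07 ± 0.09, adjusted p = 2.1e-16). EGR1, a zinc-finger transcription factor of the immediate early class, had 15.0 and 12.3 CPM in KO LPS BMS cells against 115 and 94.1 CPM in KO LPS cells (-2.94 ± 0.22, adjusted p = 3.5e-06). The largest falls and rises were taken only from genes whose 2 groups did not overlap, so that separation was set by the choice. Among the 12 largest falls of genes with at least 5 CPM stood also SLC16A13, of the monocarboxylate transporter family (-2.75 ± 0.22), KCNJ15, an inwardly rectifying potassium channel (-2.66 ± 0.25), and the transcripts MIR503HG (-2.75 ± 0.29), VNN3P (-2.68 ± 0.19) and PRKAG2-AS2 (-3.22 ± 0.20).

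The largest rises started from low levels. ICAM5, an adhesion molecule known from neurons, had 75.2 and 62.3 CPM in KO LPS BMS cells against 4.13 and 7.53 CPM in KO LPS cells (3.57 ± 0.21, adjusted p = 2.9e-09). CAMK4, a calcium/calmodulin-dependent kinase, had 11.2 and 14.0 CPM in KO LPS BMS cells and 1.68 and 1.16 CPM in KO LPS cells (3.14 ± 0.35, adjusted p = 1.4e-07). CLN8, a receptor that loads lysosomal enzymes for export from the endoplasmic reticulum, had 126 and 124 CPM in KO LPS BMS cells and 26.7 and 26.5 CPM in KO LPS cells (2.23 ± 0.08, adjusted p = 9.8e-15). CLN8 was thus the most abundant of the 12 largest rises, with replicates within a few CPM of each other. The rest of these rises included the protocadherin PCDH18 (3.13 ± 0.27), the RNA-binding protein SAMD4A (2.26 ± 0.15), the cyclic AMP-binding membrane protein POPDC2 (2.50 ± 0.30) and CCDC17 (3.02 ± 0.20). Several large changes were of transcripts that overlap another gene. The sources used here do not give the strand setting of the read counting, so ARHGAP31-AS1 (3.97 ± 0.34), PSMD6-AS2 (2.50 ± 0.23), PRKAG2-AS2 and GPR199P (2.18 ± 0.26) cannot be told apart with certainty from their partners. ARHGAP31 and PRKAG2, each with a partner in opposite orientation, had log2 fold changes of 0.08 and 0.01, neither called, while ULK4, which contains GPR199P, rose by 2.17.

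**Figure D2:**
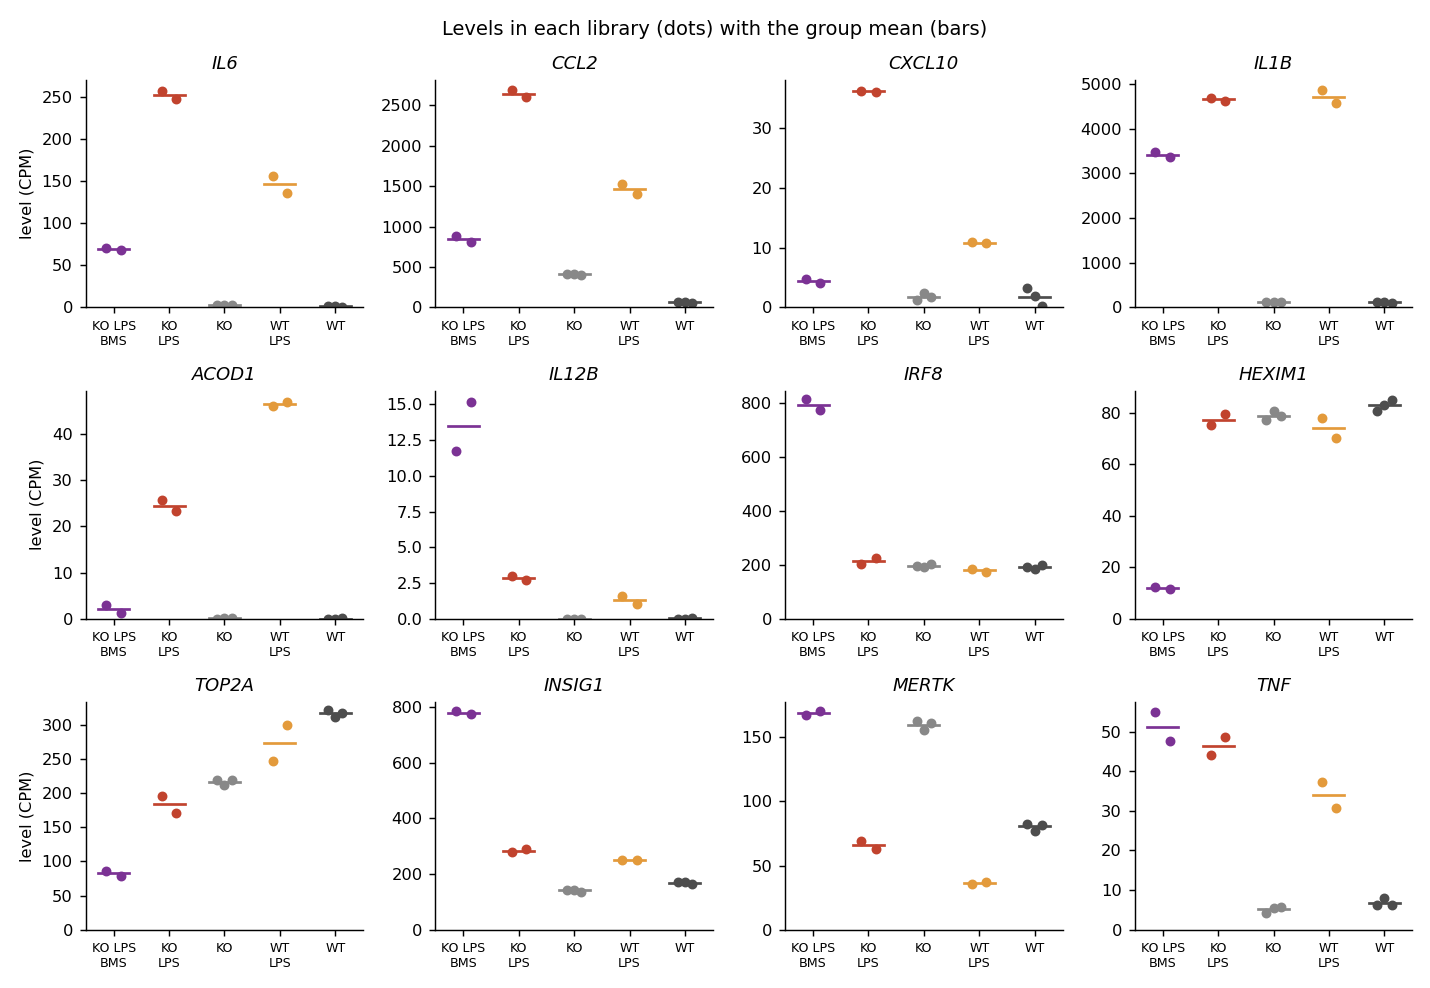
Levels (CPM) of 12 genes in each library (dots) and group means (bars), with KO LPS BMS left of KO LPS, then KO, WT LPS and WT. For IL6, CCL2, CXCL10 and ACOD1 the KO LPS BMS dots lie under the KO LPS dots and above the KO dots, for IRF8, INSIG1 and IL12B they lie above those of every other group, and for TNF the 2 groups overlap.

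Secreted inflammatory mediators were more often lower than higher, but did not move as a block. Of 18 cytokine genes tested, 9 (50%) were lower and 2 (11.1%) higher in KO LPS BMS than in KO LPS cells, with a median log2 fold change of -0.38. The shares over all genes tested, 25.5% lower and 22.3% higher, are the background for this and every later list count. IL6, the pleiotropic cytokine of the acute phase, had 70.7 and 68.6 CPM in KO LPS BMS cells against 257 and 247 CPM in KO LPS cells (-1.86 ± 0.08, adjusted p = 6.0e-14). The level in KO cells was 2.80 ± 0.294 CPM (SD, n = 3) and in WT LPS cells 156 and 135 CPM, so IL6 with the compound lay under both LPS groups and well above unstimulated cells. OSM, a cytokine of the IL-6 family, had 16.2 and 14.1 CPM in KO LPS BMS cells and 40.4 and 44.3 CPM in KO LPS cells (-1.49 ± 0.12, adjusted p = 1.4e-09). IL1B, the inflammasome-processed pyrogen, was far more abundant and moved less. It had 3477 and 3357 CPM in KO LPS BMS cells against 4689 and 4612 CPM in KO LPS cells (-0.44 ± 0.06, adjusted p = 2.4e-06). TNF, the early cytokine of the LPS response, had 54.9 and 47.6 CPM in KO LPS BMS cells and 44.1 and 48.7 CPM in KO LPS cells (0.14 ± 0.12, adjusted p = 0.34), with overlapping values. IL18, a second inflammasome substrate, went the other way, with 108 and 117 CPM in KO LPS BMS cells and 66.9 and 57.7 CPM in KO LPS cells (0.86 ± 0.08, adjusted p = 2.4e-08). IL12B, the shared subunit of IL-12 and IL-23, had 11.7 and 15.2 CPM in KO LPS BMS cells against 2.97 and 2.74 CPM in KO LPS cells (2.24 ± 0.24, adjusted p = 1.6e-07). IL12B and IL18 were the 2 cytokines that rose.

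Chemokines, which recruit leukocytes, showed the same tilt: 15 of 27 tested were lower, 2 higher and 10 not called, with a median of -0.52. CCL2, the main monocyte attractant, had 886 and 813 CPM in KO LPS BMS cells against 2686 and 2599 CPM in KO LPS cells (-1.64 ± 0.07, adjusted p = 9.5e-13), and KO cells without LPS had 411 ± 6.34 CPM (SD, n = 3). CXCL10, the interferon-inducible attractant of T cells, had 4.81 and 4.12 CPM in KO LPS BMS cells and 36.2 and 35.9 CPM in KO LPS cells (-3.02 ± 0.48, adjusted p = 7.3e-04). CXCL5, an attractant of neutrophils, had 79.0 and 68.8 CPM in KO LPS BMS cells and 185 and 162 CPM in KO LPS cells (-1.24 ± 0.08, adjusted p = 1.1e-10). The groups were separate for all 3 of these genes. The most abundant chemokine, CXCL8, had 6255 and 6212 CPM in KO LPS BMS cells against 8722 and 7936 CPM in KO LPS cells (-0.42 ± 0.07, adjusted p = 1.1e-04). CXCL2 and CXCL3, close relatives of CXCL1 that also attract neutrophils, were not called (-0.18 ± 0.12 and -0.17 ± 0.14), whereas CXCL1 was lower (-0.78 ± 0.08, adjusted p = 4.2e-07). These 3 genes are similar in sequence, and the handling of reads shared between them is not stated. CXCL16, the membrane-bound scavenger and chemokine (0.53 ± 0.07), and the eosinophil attractant CCL24 (0.56 ± 0.09) were the chemokines that rose.

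The promoters of several of these genes hold a kappaB-like run of letters, and they are shown because genes with nearly the same run differed in their change. RefSeq promoter windows (GRCh38.p14, 250 bases before to 50 after the annotated start) were searched on both strands. The letters sought for NF-kB were GGGNNNTTCC, where N is any base, and other kappaB-like forms were not searched for. The letters were found in 10 of 21 chemokine promoters given, in 4 of 12 cytokine promoters, and in 10.2% of 10590 promoters of tested protein-coding genes. Among chemokines, 6 of the 12 that were lower, 4 of the 8 that were not called and 0 of the 1 that was higher had a match. Among cytokines, the match was found in 4 of the 7 that were lower, 0 of the 4 not called and 0 of the 1 higher. The stretches below are read 5′ to 3′ on the gene's strand, with matches in capitals, and in a run of 11 capitals the 2 strands' matches overlap. They lie at chr7:22727080-22727199 (plus strand, IL6), chr4:76023498-76023697 (minus strand, CXCL10), chr4:73998678-73998797 (minus strand, CXCL5), chr4:73869273-73869392 (plus strand, CXCL1) and chr4:74099196-74099315 (minus strand, CXCL2).
IL6: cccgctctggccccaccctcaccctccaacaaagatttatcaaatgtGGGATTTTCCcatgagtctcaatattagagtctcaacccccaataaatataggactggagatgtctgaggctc
CXCL10: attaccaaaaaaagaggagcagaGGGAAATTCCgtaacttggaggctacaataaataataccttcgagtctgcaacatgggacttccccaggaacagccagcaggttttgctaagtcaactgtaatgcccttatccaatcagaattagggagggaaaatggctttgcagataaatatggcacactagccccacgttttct
CXCL5: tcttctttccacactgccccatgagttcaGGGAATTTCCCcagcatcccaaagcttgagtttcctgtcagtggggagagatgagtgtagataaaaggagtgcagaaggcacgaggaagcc
CXCL1: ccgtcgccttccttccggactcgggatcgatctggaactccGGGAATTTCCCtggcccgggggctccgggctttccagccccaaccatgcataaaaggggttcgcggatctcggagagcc
CXCL2: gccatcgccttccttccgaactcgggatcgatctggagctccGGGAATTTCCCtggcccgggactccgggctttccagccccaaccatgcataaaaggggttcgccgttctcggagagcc
CXCL5, CXCL1 and CXCL2 carry the same 11 capital letters, beside log2 fold changes of -1.24, -0.78 and -0.18, the last not called. A match of letters is a description of the sequence and does not show binding.

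As a list, the receptor and signalling genes upstream were near the background: of 25 Toll-like receptor and LPS signalling genes, 8 (32%) were higher and 7 (28%) lower, beside 22.3% and 25.5% over all genes tested. CD14, the LPS co-receptor, had 835 and 686 CPM in KO LPS BMS cells against 1251 and 1606 CPM in KO LPS cells (-0.91 ± 0.14, adjusted p = 6.0e-04). IRAK4, the first kinase of the MyD88 complex, was lower (-0.93 ± 0.12, adjusted p = 2.2e-06), as was MYD88 itself (-0.41 ± 0.06, adjusted p = 1.0e-05). IRAK2, the later kinase of that complex and an LPS-induced gene, had 240.1 and 235 CPM in KO LPS BMS cells and 90.0 and 91.4 CPM in KO LPS cells (1.39 ± 0.07, adjusted p = 1.1e-12), and TAB2, an adaptor of the TAK1 kinase, was higher too (0.97 ± 0.06, adjusted p = 7.9e-11). Of 26 NF-kB subunits and feedback genes, 10 were higher and 7 lower; without KO LPS BMS replicate 2, 6 were higher, and with libraries scaled by their size alone 5. The subunit genes RELA (0.61 ± 0.10) and NFKB1 (0.36 ± 0.06) were higher, and the ubiquitin ligases BIRC2 (1.05 ± 0.07) and TRAF3 (0.63 ± 0.07), which hold the non-canonical pathway in check, were higher too. TNIP3, an LPS-induced partner of A20, had 40.4 and 45.3 CPM in KO LPS BMS cells and 142 and 138 CPM in KO LPS cells (-1.70 ± 0.08, adjusted p = 9.7e-13). IKBKE, a kinase of interferon induction, had 67.4 and 58.8 CPM in KO LPS BMS cells and 152 and 162 CPM in KO LPS cells (-1.32 ± 0.07, adjusted p = 6.5e-12).

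Interferon and STAT factors split evenly, with 9 of 25 higher and 9 lower. IRF8, a transcription factor that specifies macrophages and microglia, had 815 and 776 CPM in KO LPS BMS cells against 205 and 226 CPM in KO LPS cells (1.89 ± 0.06, adjusted p = 1.8e-15). Its level was 196 ± 5.30 CPM in KO cells (SD, n = 3) and 185 and 175 CPM in WT LPS cells, so the KO LPS BMS libraries alone stood high. IRF1, an early interferon-response factor, had 110.2 and 112 CPM in KO LPS BMS cells and 53.3 and 57.9 CPM in KO LPS cells (1.00 ± 0.07, adjusted p = 3.2e-10). JAK3 (-1.16 ± 0.08, adjusted p = 7.0e-11), the kinase of common gamma chain receptors, and STAT6 (-0.90 ± 0.06, adjusted p = 3.8e-11), the factor of IL-4 signalling, were lower. Of 36 type I interferon-stimulated genes, 12 (33.3%) were higher and 9 (25%) lower, not far from the 22.3% and 25.5% over all genes tested. Among them IFIT5, an RNA-binding antiviral protein (0.96 ± 0.09), and IFIH1, the RNA sensor MDA5 (0.58 ± 0.07), rose. The antiviral factors SAMD9 (-0.98 ± 0.11) and SAMD9L (-0.46 ± 0.08) fell. Of 24 guanylate-binding and interferon-gamma type genes, 10 were lower and 2 higher. ICAM1, the adhesion receptor for leukocytes (-0.66 ± 0.08), and GBP2, a guanylate-binding protein (-0.43 ± 0.06), were lower, and CD274, which encodes the checkpoint ligand PD-L1, had 479 and 525 CPM in KO LPS BMS cells and 317 and 312 CPM in KO LPS cells (0.67 ± 0.06, adjusted p = 5.4e-09).

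Genes of inflammasomes and pyroptosis were mostly lower: 13 of 20 fell and 3 rose, with a median of -0.53. NLRC4, the sensor scaffold of the flagellin inflammasome, had 13.6 and 12.4 CPM in KO LPS BMS cells and 52.0 and 48.3 CPM in KO LPS cells (-1.96 ± 0.09, adjusted p = 4.3e-13). NLRC5, a regulator of MHC class I genes, had 9.14 and 9.59 CPM in KO LPS BMS cells and 25.7 and 28.9 CPM in KO LPS cells (-1.54 ± 0.12, adjusted p = 4.5e-10). CASP1, the protease that matures IL-1β, was lower by a smaller step (-0.60 ± 0.06, adjusted p = 4.8e-08), and GSDME, a pore-forming gasdermin, was higher (0.31 ± 0.08, adjusted p = 0.0025). Counter-regulators were more often lower too: of 24 anti-inflammatory and alternative activation genes, 13 were lower and 6 higher. IL1RN, the IL-1 receptor antagonist, had 512 and 519 CPM in KO LPS BMS cells and 1068 and 1058 CPM in KO LPS cells (-1.04 ± 0.07, adjusted p = 4.0e-11). IL10, the chief anti-inflammatory cytokine, had 28.8 and 27.5 CPM in KO LPS BMS cells and 44.8 and 42.4 CPM in KO LPS cells (-0.63 ± 0.11, adjusted p = 7.3e-05). The scavenger receptor MRC1 (0.67 ± 0.06) and the complement receptor VSIG4 (0.65 ± 0.05) rose.

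Among metabolic genes tied to LPS activation, 9 of 13 enzymes of itaconate, kynurenine and NAD metabolism were lower and 3 higher. ACOD1, which makes itaconate, had 2.99 and 1.29 CPM in KO LPS BMS cells and 25.7 and 23.3 CPM in KO LPS cells (-3.56 ± 0.25, adjusted p = 2.7e-11), whereas WT LPS cells had 46.2 and 47.1 CPM. NAMPT, the rate-limiting enzyme of NAD salvage, had 522 and 531 CPM in KO LPS BMS cells and 1601 and 1552 CPM in KO LPS cells (-1.58 ± 0.05, adjusted p = 4.2e-15). SLC7A2, a cationic amino acid transporter, was higher (0.94 ± 0.08, adjusted p = 3.4e-09). Other LPS-induced genes fell with them. SLC39A8, a zinc and manganese importer, had 192 and 182 CPM in KO LPS BMS cells and 699.7 and 695 CPM in KO LPS cells (-1.90 ± 0.06, adjusted p = 2.0e-15). SOD2, the mitochondrial superoxide dismutase and one of the most abundant transcripts, had 6686 and 6688 CPM in KO LPS BMS cells and 10476 and 10305 CPM in KO LPS cells (-0.64 ± 0.04, adjusted p = 2.2e-10). PTX3, a secreted pattern recognition molecule (-2.66 ± 0.11, adjusted p = 2.2e-14), and THBS1, the matrix protein thrombospondin (-1.44 ± 0.05, adjusted p = 1.5e-14), were lower, and F3, tissue factor, was higher (1.42 ± 0.09, adjusted p = 2.2e-10). Of 34 glycolysis and HIF target genes, 16 were lower and 5 higher, and 2 were higher without KO LPS BMS replicate 1 and 3 without KO LPS replicate 1 or with scaling by library size alone. LDHA, lactate dehydrogenase A, had 412 and 424 CPM in KO LPS BMS cells and 720.3 and 678 CPM in KO LPS cells (-0.74 ± 0.05, adjusted p = 4.4e-10). EGLN1, the oxygen sensor that marks HIF for decay, was lower too (-0.91 ± 0.07, adjusted p = 7.8e-10).

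To ask how the compound's changes fell on the LPS response as a whole, genes were classed in unedited cells, which share no library with the comparison. Of 508 genes (3.17% of those tested) that were called and at least 4-fold higher in WT LPS than in WT cells, 220 (43.3%) were lower and 94 (18.5%) higher in KO LPS BMS than in KO LPS cells, with a median of -0.37. Over all genes tested 25.5% were lower and 22.3% higher. The share that fell was larger among the genes that LPS raised most: it was 35.0% of 835 genes induced 2 to 4-fold, 34.8% of 264 induced 4 to 8-fold, 48.9% of 178 induced 8 to 32-fold and 62.1% of 66 induced 32-fold or more. In the last of these sets 41 genes fell, 4 rose and the median was -0.75. Among the 306 of the 508 induced genes with a mean of at least 5 CPM, ACOD1, PRKAG2-AS2 and CXCL10 fell most, and IL12B and DUSP8, a MAP kinase phosphatase (2.00 ± 0.29), were among those that rose most. Of 402 genes (2.51%) at least 4-fold lower in WT LPS than in WT cells, 71 (17.7%) were higher and 42 (10.4%) lower. Many of these were hardly counted, and of the 68 with a mean of at least 5 CPM, 36 were higher and 10 lower, beside 28.8% higher and 29.6% lower among all 10472 genes at that level. BNC2, a zinc-finger protein (1.47 ± 0.22), and KIF26B, of the kinesin family (1.45 ± 0.13), were among those that rose, and CEBPA, a myeloid transcription factor (-1.36 ± 0.25), among those that fell.

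**Figure D3:**
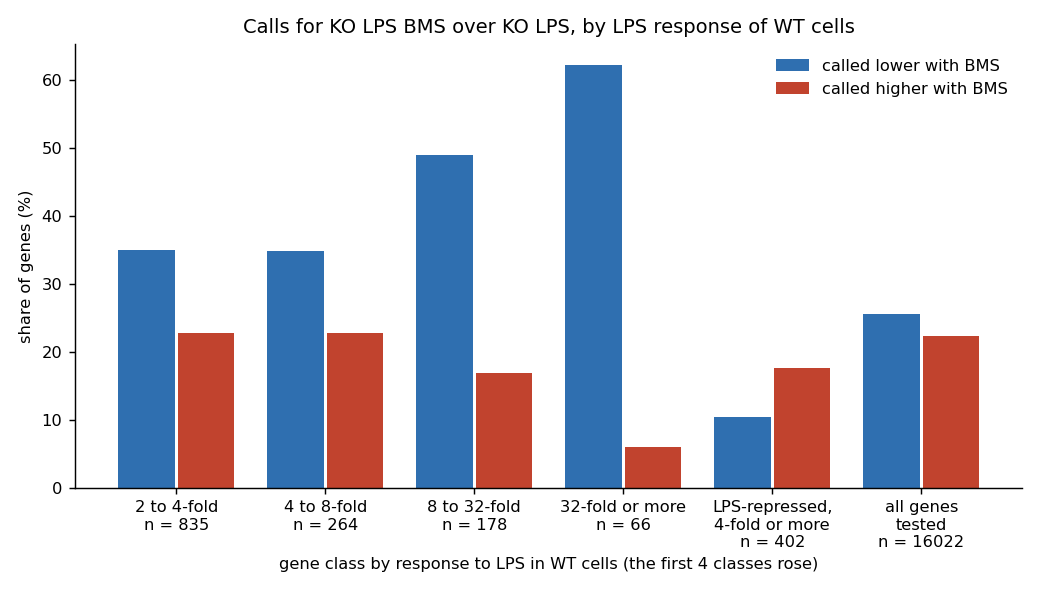
Share of genes (%) called lower (blue) or higher (red) in KO LPS BMS than in KO LPS cells, for genes classed by their response to LPS in unedited cells. The share called lower is 35.0% for genes induced 2 to 4-fold and 62.1% for those induced 32-fold or more, against 25.5% of all genes tested.

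Genes that differ by genotype without LPS were classed in the same way. Of 399 genes (2.49%) at least 2-fold higher in KO than in WT cells, 96 (24.1%) were lower and 62 (15.5%) higher with the compound. Of 191 genes (1.19%) at least 2-fold lower in KO than in WT cells, 31 (16.2%) were higher and 36 (18.8%) lower. The medians of these 2 sets were -0.04 and -0.09, beside -0.04 over all genes. Genes of at least 5 CPM gave other shares: of 147 higher in KO than in WT cells 33.3% were lower with the compound, beside 29.6% of all genes at that level, and of 65 lower in KO than in WT cells 36.9% were higher, beside 28.8%. Without that limit, 16.3% of the genes higher in KO than in WT cells and 12% of those lower in KO fell by 2-fold or more, beside 7.83% of all genes tested. STEAP4, a metalloreductase raised in KO cells, had 18.6 and 23.7 CPM in KO LPS BMS cells and 114 and 109.5 CPM in KO LPS cells (-2.40 ± 0.10, adjusted p = 8.7e-14). RGS2, a regulator of G protein signalling that was lower in KO than in WT cells, fell further, with 6.07 and 7.08 CPM in KO LPS BMS cells and 22.9 and 21.0 CPM in KO LPS cells (-1.73 ± 0.20, adjusted p = 5.2e-06).

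The transcription machinery that CDK9 belongs to held one of the steepest falls, beside smaller rises. Of 22 transcriptional CDK and P-TEFb genes, 8 (36.4%) were higher and 5 (22.7%) lower, beside 22.3% and 25.5% over all genes tested. HEXIM1, the inhibitor of P-TEFb, had 12.1 and 11.5 CPM in KO LPS BMS cells against 75.2 and 79.7 CPM in KO LPS cells (-2.71 ± 0.09, adjusted p = 9.8e-16). In the other 8 libraries HEXIM1 was level, with 79.0 ± 1.60 CPM in KO cells (SD, n = 3), 78.1 and 70.4 CPM in WT LPS cells and 83.0 ± 2.18 CPM in WT cells (SD, n = 3). LARP7, which stabilises the 7SK RNA, was lower (-0.79 ± 0.10, adjusted p = 2.2e-06). CCNT1, the cyclin of P-TEFb, had 124 and 138 CPM in KO LPS BMS cells and 61.8 and 59.2 CPM in KO LPS cells (1.12 ± 0.07, adjusted p = 4.0e-11). CDK9 itself had 212 and 195 CPM in KO LPS BMS cells and 136 and 153 CPM in KO LPS cells (0.49 ± 0.07, adjusted p = 9.0e-06), and CCNL1, a cyclin of the splicing-linked CDK11, was higher as well (1.03 ± 0.06, adjusted p = 1.3e-11). Splicing factors moved strongly: of 32 SR and hnRNP genes, 16 were lower and 10 higher. SRSF3, an SR protein, had 63.5 and 66.0 CPM in KO LPS BMS cells and 259 and 244 CPM in KO LPS cells (-1.96 ± 0.06, adjusted p = 9.8e-16), and HNRNPD, the AU-rich element binding protein AUF1, had 58.5 and 60.6 CPM in KO LPS BMS cells and 199 and 213 CPM in KO LPS cells (-1.79 ± 0.07, adjusted p = 1.4e-14). CLK1, a kinase of SR proteins (0.85 ± 0.07), and SRSF11 (0.81 ± 0.07) were higher. Gene counts do not tell apart the isoforms of these genes.

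Immediate early genes split, with 8 of 24 (33.3%) higher and 7 (29.2%) lower, not far from the shares over all genes. NR4A1, an orphan nuclear receptor, fell with EGR1 (-1.72 ± 0.18, adjusted p = 4.6e-08). ATF3, a stress-induced repressor, had 76.8 and 74.5 CPM in KO LPS BMS cells and 35.0 and 34.9 CPM in KO LPS cells (1.11 ± 0.08, adjusted p = 3.4e-10), and KLF6, a zinc-finger factor of macrophage activation, was higher (0.68 ± 0.05, adjusted p = 6.2e-10). Of 16 MAP kinase phosphatase and Sprouty genes, 7 were higher and 4 lower. DUSP5, an ERK phosphatase, had 202 and 209 CPM in KO LPS BMS cells and 72.4 and 72.9 CPM in KO LPS cells (higher, adjusted p = 3.7e-13), and DUSP3 was lower (-1.04 ± 0.06, adjusted p = 2.1e-11). Of 12 factors that bind cytokine transcripts and steer their decay, RC3H1, encoding Roquin-1, was higher (1.21 ± 0.07, adjusted p = 7.6e-12), and ZFP36, encoding tristetraprolin, was lower (-0.73 ± 0.09, adjusted p = 5.3e-06). Of 15 BCL2 family genes tested, 5 (33.3%) were higher and 4 (26.7%) lower, beside 22.3% and 25.5% over all genes. BCL2L1, encoding the survival factor BCL-XL, had 202 and 217 CPM in KO LPS BMS cells and 91.6 and 96.3 CPM in KO LPS cells (1.16 ± 0.07, adjusted p = 1.0e-11). BCL2A1, an NF-kB target of the same family, was higher (0.97 ± 0.06, adjusted p = 1.1e-10), and BCL2L2 was lower (-0.57, adjusted p = 2.1e-04). Of 31 p53 target genes, 10 (32.3%) were higher and 7 (22.6%) lower, near the 22.3% and 25.5% over all genes, with DDB2, a DNA damage sensor (1.12 ± 0.08), among the first and the CDK inhibitor CDKN1A (-0.33 ± 0.07) among the second.

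Single-exon genes, a grouping chosen after these values were seen, held a larger share of 2-fold falls than genes with more exons. Of 218 single-exon protein-coding genes tested, 76 were lower and 26 higher, 18.8% fell by 2-fold or more, and the median was -0.39. Over all 13114 protein-coding genes 6.82% fell by that much. Genes with 2 exons had a median of -0.23, and of -0.05 among those with at least 5 CPM, with 17.3% and 11.3% falling by 2-fold or more. Falls of any size were not particular to genes with few exons: 34.0% of genes with 21 or more exons were lower, beside 34.9% of single-exon genes, but 6.03% of them fell by 2-fold or more. Single-exon genes were also less abundant, with a median level of 6.35 CPM. The 119 of them with at least 5 CPM had a median of -0.29, with 53 lower and 18 higher. Of these 18, 12 were mitochondrially encoded genes, which are transcribed together and are counted again as a list below. HEXIM1 belongs to this class, as does PIGM, an enzyme of GPI anchor synthesis (-2.27 ± 0.17). Some members differed between KO LPS replicates 1 and 2, such as FZD2 (8.64 and 15.5 CPM, called lower) and CEBPB (329 and 669 CPM, not called). Others did not, such as PIGM (13.7 and 13.1 CPM) and HEXIM1. The part of KO LPS replicate 2 in the shares of this class was not tested. Of 17 histone genes tested, most of them without introns, 6 were lower and 1 higher. Histone transcripts without a poly(A) tail depend on how RNA was selected, and the part of this in the result was not tested.

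**Figure D4:**
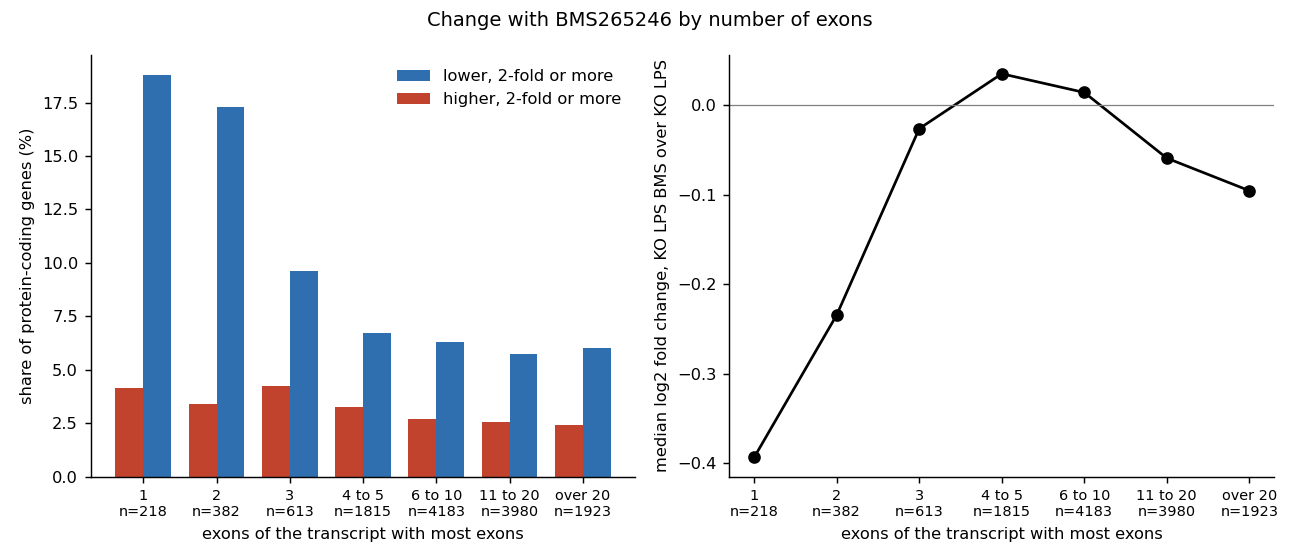
Left, share of protein-coding genes (%) that were called and changed 2-fold or more, higher (red) or lower (blue) in KO LPS BMS than in KO LPS cells, by the number of exons of the annotated transcript with most exons. Right, the median log2 fold change of each class, which is -0.39 for 218 single-exon genes and -0.23 for 382 genes with 2 exons.

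The cell cycle, the textbook field of CDK2, showed a moderate fall of late-phase genes. CDK2 had 20.3 and 17.3 CPM in KO LPS BMS cells and 20.3 and 17.1 CPM in KO LPS cells and was not called (0.00 ± 0.12, adjusted p = 0.999), and CDK1, the mitotic kinase, was lower (-0.48 ± 0.08, adjusted p = 6.7e-05). Of 37 G2/M and mitosis genes, 26 were lower and none was higher by edgeR, also at an unadjusted p under 0.05 and by DESeq2 and limma voom, with a median of -0.50. When a library was left out, 1 was higher without KO LPS replicate 1, and 1 without KO LPS replicate 2. TOP2A, the topoisomerase that untangles chromosomes, had 86.0 and 78.5 CPM in KO LPS BMS cells and 196 and 171 CPM in KO LPS cells (-1.16 ± 0.08, adjusted p = 1.1e-09). NUSAP1, a spindle protein, had 31.4 and 32.6 CPM in KO LPS BMS cells and 68.2 and 65.3 CPM in KO LPS cells (-1.06 ± 0.08, adjusted p = 2.4e-10). MKI67, the Ki-67 proliferation antigen, was not called (-0.16 ± 0.09, adjusted p = 0.14), and was called lower when libraries were scaled by their size alone. Of 41 G1/S and DNA replication genes, 18 were lower and 5 higher. Without KO LPS replicate 1, 11 were lower and 3 higher, and without KO LPS BMS replicate 1, or with scaling by library size alone, 2 were higher. POLA2, a subunit of DNA polymerase alpha (-1.30 ± 0.11), and RRM2, a subunit of ribonucleotide reductase (-0.92 ± 0.07), fell, and FEN1, the flap endonuclease, rose (0.32 ± 0.08). Of 10 CDK inhibitor and pocket protein genes, 6 were lower, among them RBL1 (-1.26 ± 0.13) and RBL2 (-0.82 ± 0.08), which encode p107 and p130. CDK6, a kinase of early G1, rose (0.94 ± 0.08, adjusted p = 6.9e-09).

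Many mitotic promoters hold the CHR element, and examples are shown because it was common to genes that fell and genes that were not called. The letters TTTGAA were searched for on both strands of the same windows. They were found in 23 of 30 G2/M promoters given and in 14.1% of the 10590 promoters of tested protein-coding genes. A match was present in 16 of the 22 genes that were lower and in 7 of the 8 that were not called. The stretches lie at chr5:163460572-163460631 (plus strand, HMMR), chr16:23678829-23678888 (plus strand, PLK1) and chr10:128126424-128126483 (minus strand, MKI67), with each match in capitals and adjoining matches run together.
HMMR: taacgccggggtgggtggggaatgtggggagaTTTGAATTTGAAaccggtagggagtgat
PLK1: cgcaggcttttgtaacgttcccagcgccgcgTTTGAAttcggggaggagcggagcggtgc
MKI67: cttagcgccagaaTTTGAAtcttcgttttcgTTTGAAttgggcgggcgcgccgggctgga
HMMR, a spindle-associated hyaluronan receptor, had a log2 fold change of -1.20 ± 0.11, PLK1, a mitotic kinase, -0.50 ± 0.09, and MKI67 -0.16 ± 0.09.

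Lipid and lysosomal genes rose. Of 32 genes of cholesterol and fatty acid synthesis, 27 were higher and 2 lower, and 1 was lower without KO LPS BMS replicate 2 or without KO LPS replicate 2. The list's median was 0.58. INSIG1, the sterol-responsive brake on SREBP, had 785 and 775 CPM in KO LPS BMS cells and 278 and 289 CPM in KO LPS cells (1.46 ± 0.06, adjusted p = 1.5e-14). SCD, the stearoyl-CoA desaturase, had 2277 and 2259 CPM in KO LPS BMS cells and 995 and 918 CPM in KO LPS cells (1.25 ± 0.05, adjusted p = 4.7e-14). KO LPS BMS libraries were the higher ones for both genes. FADS1, a fatty acid desaturase, was lower (-0.42 ± 0.06, adjusted p = 3.9e-06). Targets of LXR, the sterol sensor that drives efflux, did not follow: 2 of 15 were higher and 4 lower, and 5 were higher without KO LPS replicate 2. NR1H3, which encodes LXR alpha, was lower (-0.67 ± 0.07, adjusted p = 8.0e-08). Of 33 lysosome genes, 24 were higher and 3 lower, with a median of 0.34; 1 was lower without KO LPS BMS replicate 2 and 1 without KO LPS replicate 2. NPC1, the lysosomal cholesterol exporter, had 384 and 386 CPM in KO LPS BMS cells and 223 and 231 CPM in KO LPS cells (0.76 ± 0.06, adjusted p = 4.4e-10). LIPA, the acid lipase (0.72 ± 0.06), and TFEB, the factor that drives lysosomal genes (0.77 ± 0.12), were higher.

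**Figure D5:**
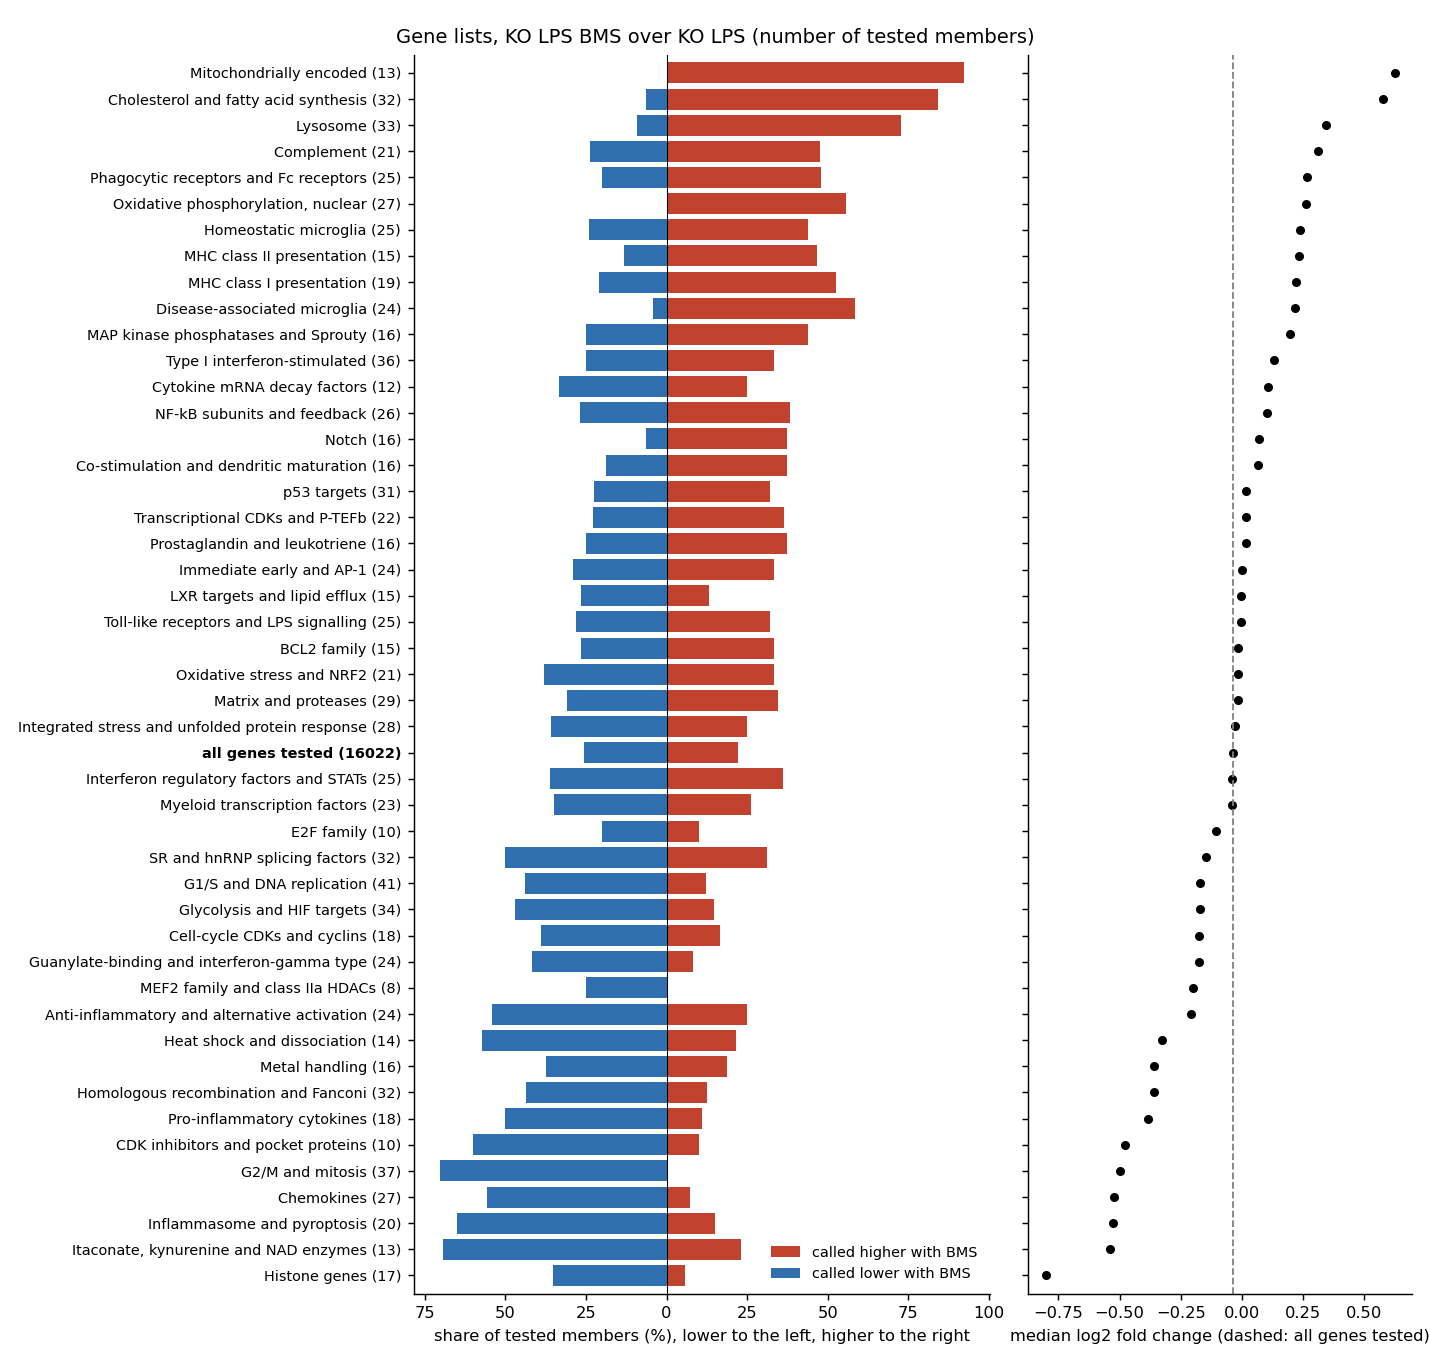
Left, share of tested members (%) of each gene list called lower (blue, to the left) or higher (red, to the right) in KO LPS BMS than in KO LPS cells. Right, the list's median log2 fold change, from -0.80 for histone genes to 0.62 for mitochondrially encoded genes, with a dashed line at the -0.04 of all genes tested.

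Microglial identity genes were mixed with a tilt upward. Of 25 homeostatic microglia genes, 11 were higher and 6 lower, and of 24 disease-associated microglia genes 14 were higher and 1 lower, with 2 lower without KO LPS replicate 1 or replicate 2. With libraries scaled by their size alone 10 of the 24 were higher and 4 lower. MERTK, the receptor that clears apoptotic cells, had 168 and 171 CPM in KO LPS BMS cells and 69.3 and 62.7 CPM in KO LPS cells (1.36 ± 0.07, adjusted p = 1.1e-12), close to the 159.7 ± 3.92 CPM of KO cells (SD, n = 3). TREM2, a lipid-sensing receptor of microglia, had 283 and 269 CPM in KO LPS BMS cells and 166 and 191 CPM in KO LPS cells (0.63 ± 0.07, adjusted p = 4.6e-07). P2RY12, the ADP receptor of resting microglia, had 5.99 and 5.41 CPM in KO LPS BMS cells and 1.93 and 1.78 CPM in KO LPS cells (1.61 ± 0.23, adjusted p = 2.7e-06), still low beside the 11.7 ± 0.887 CPM of KO cells (SD, n = 3). Its relative P2RY13 went down, with 14.3 and 14.4 CPM in KO LPS BMS cells and 49.3 and 44.9 CPM in KO LPS cells (-1.72 ± 0.09, adjusted p = 1.2e-12), and CX3CR1, the fractalkine receptor, fell too (-0.59 ± 0.07, adjusted p = 1.3e-06). SLCO2B1, an organic anion transporter (1.10 ± 0.05), and GPNMB, a glycoprotein of lipid-laden microglia (0.60 ± 0.05), rose. Of 13 tested microglia and macrophage markers 7 were higher and 5 lower, and 3 were lower without KO LPS replicate 1. Their summed level, given above, overlapped between the groups.

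Antigen presentation genes also rose more often than they fell, in 10 of 19 for MHC class I (4 lower) and 7 of 15 for MHC class II (2 lower). With libraries scaled by their size alone 6 class I genes were higher and 4 lower. B2M, the light chain of class I molecules (0.41 ± 0.06), and HLA-DMB, a peptide exchange factor (0.78 ± 0.07), were higher, and RFX5, a factor of class II promoters, was lower (-0.81 ± 0.07). Reads of classical HLA genes can be shared between close copies, and their handling is not stated either. CD80, a co-stimulatory ligand of T cells, had 113 and 133 CPM in KO LPS BMS cells and 49.2 and 51.1 CPM in KO LPS cells (1.30 ± 0.09, adjusted p = 2.1e-10). CD83, a maturation marker of dendritic cells, had 674 and 675 CPM in KO LPS BMS cells and 286 and 281 CPM in KO LPS cells (1.25 ± 0.06, adjusted p = 8.9e-13). Both are induced by LPS, and both moved further from their unstimulated level. SLAMF7, a receptor of activated macrophages that LPS also induces, was lower (-0.46 ± 0.06, adjusted p = 2.0e-06).

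Mitochondrial transcripts rose as a set of linked genes. Of 13 mitochondrially encoded genes, which are transcribed together, 12 were higher and none lower by edgeR, with a median of 0.62, and none was lower at an unadjusted p under 0.05 or by DESeq2 and limma voom. MT-ND1, a subunit of complex I, had 446 and 518 CPM in KO LPS BMS cells and 324 and 299.8 CPM in KO LPS cells (0.63 ± 0.08, adjusted p = 3.1e-06). Mitochondrial genes took 1.36% and 1.69% of the counts in KO LPS BMS libraries, and 1.09% and 1.06% in KO LPS libraries. Of 27 nuclear genes of oxidative phosphorylation, 15 were higher and none lower by edgeR, while 1 was lower at an unadjusted p under 0.05 and none by DESeq2 or limma voom. Of the same genes 9 were higher without KO LPS BMS replicate 1, and 8 when libraries were scaled by their size alone. NDUFB3, of complex I, was higher (0.50 ± 0.10, adjusted p = 2.8e-04). Of 14 heat shock and dissociation genes, which also respond to cell handling, 8 were lower and 3 higher, with HSPA8, the constitutive HSC70 chaperone, at 691 and 699.5 CPM in KO LPS BMS cells and 1474 and 1333 CPM in KO LPS cells (-1.01 ± 0.06, adjusted p = 4.1e-12). The part of mitochondrial share and of stress genes in the other results was not tested.

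Markers of other lineages differed widely in level. The 16 neutrophil, mast cell and basophil markers summed to 1131 and 1160 CPM in KO LPS BMS cells and 1148 and 1128 CPM in KO LPS cells, nearly all of it from CLC, HDC, CPA3 and GATA2, and of the 11 tested 1 was higher and 1 lower. CLC, the crystal-forming galectin of eosinophils and basophils, had 399 and 415 CPM in KO LPS BMS cells and 466 and 439 CPM in KO LPS cells, and HDC, the enzyme that makes histamine, had 242 and 269 CPM in KO LPS BMS cells and 234 and 225 CPM in KO LPS cells. The sums of this list thus overlapped between the groups. The 12 neuron and glia markers summed to 109 and 106 CPM in KO LPS BMS cells and 83.3 and 84.6 CPM in KO LPS cells, mostly from MBP, and DCX, STMN2, AQP4 and SOX10 were at 0 in all 4 libraries. The 10 endothelial markers summed to 482 and 489 CPM in KO LPS BMS cells against 353 and 315 CPM in KO LPS cells, nearly all of it from PECAM1, an adhesion molecule that macrophages also carry, with 464 and 471 CPM in KO LPS BMS cells and 338 and 302 CPM in KO LPS cells (0.55 ± 0.06, adjusted p = 4.5e-07). The 11 lymphocyte markers summed to 21.4 and 22.6 CPM in KO LPS BMS cells and 26.2 and 33.8 CPM in KO LPS cells. Most of this came from NKG7, with 16.7 and 16.4 CPM in KO LPS BMS cells and 24.8 and 32.2 CPM in KO LPS cells. Of the 5 lymphocyte markers tested, NKG7 was the 1 called lower, and 2 were higher, KLRD1 and GNLY, both at low levels. The 11 mesenchymal markers summed to 29.0 and 27.5 CPM in KO LPS BMS cells and 24.1 and 30.6 CPM in KO LPS cells. The 14 monocyte and border macrophage markers summed to 5252 and 5134 CPM in KO LPS BMS cells and 4904 and 4573 CPM in KO LPS cells. Within them S100A9, an alarmin of monocytes, had 308 and 267 CPM in KO LPS BMS cells and 584 and 619 CPM in KO LPS cells (-1.07 ± 0.06, adjusted p = 1.1e-11), while LYZ, lysozyme, was higher (0.60 ± 0.06, adjusted p = 1.1e-07). The part of these markers in the other results was not tested.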

How the data were processed

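RNA from 12 cultures of iMGLs was sequenced, and what the authors deposited is a table of unnormalised read counts for 57992 Ensembl gene IDs. CASAVA 1.7, Cufflinks and the build GRCh38 are named in the submitters' processing notes, whereas no source used here names the read counter, its strand setting or the annotation. Totals ran from 13888283 to 17639136 counts per library. The floor of 3 counts that a 0 allows lies at 0.154 to 0.236 CPM and covers counting error only. A gene name table gave symbols for 56948 IDs, and GENCODE for 440 others.

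Groups and replicate numbers came from the sample titles. All 12 libraries were fitted with 1 mean per group in edgeR 4.0.16 (R 4.3.3): filterByExpr by group left 16022 genes, libraries were scaled by TMM, and KO LPS BMS minus KO LPS was tested with the robust quasi-likelihood F test, 2-sided, with Benjamini-Hochberg adjustment over all genes and a threshold of 0.05. Errors on log2 fold changes are standard errors of the fit, which pools the spread over 5 groups (common biological coefficient of variation 0.0635). The smallest p of an exact 2-sided permutation test in this design is 0.3333. Alternatives used DESeq2 1.42.0, limma 3.58.1 (voom), other scalings and filters, the 4 libraries only, and each library left out in turn.

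Genes named are MEF2C, a fixed panel, the 12 largest rises and falls with at least 5 CPM, the members of each list with the 2 lowest adjusted p in each direction, and the 3 largest changes of each class. CDK9, CXCL1, CXCL2, CXCL3, RELA, NFKB1, CASP1, TOP2A, TFEB, CLC, HDC, CPA3, GATA2, MBP, HMMR, PLK1, PIGM, FTH1 and the partners of overlapping genes were added after their values were seen. So were FZD2, CEBPB, CD68, DCX, STMN2, AQP4, SOX10, RN7SL2 and ENSG00000281181. The comparison and the gene lists were chosen with earlier results of these data known.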

Additional observations from a re-analysis of the deposited data

How the results depend on the processing

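The count of 7658 genes called stayed within 1.5 times under all alternatives but 1: a test against a change of 1.5-fold (glmTreat) called 1739. Over other scalings, filters, tools and fits it was 6593 to 7733, at an adjusted p of 0.01 it was 5800, and without each of the 4 libraries in turn 6242 to 6996. Of the calls, 46.6% were higher, 37.1% with libraries scaled by their size alone and 50.2% with DESeq2 size factors. Replicate numbers were not used to pair the libraries, and the labels do not say whether they do. The deviations of same-numbered KO LPS BMS and KO LPS libraries correlated at -0.128. With 2 libraries a group the crossed numbers give the same value with the other sign, so it cannot show whether pairs exist. A fit with the replicate block called 7379 genes, and one with the numbers crossed, chosen after seeing the data, 7537. Of 228 named genes, 208 kept their call under every alternative, among those that did not PMVK, E2F1, GLA and BCL2L11. Of 112 list counts, 83 stayed within 1.5 times throughout. Depth limited calls at low levels: of 2623 protein-coding genes in the lowest of 5 level groups, at most 3.52 CPM, 1935 were not called, against 854 of 2623 in the highest.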

Other observations

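Counts for gene groups outside the account above came from the same libraries and test. Of 32 homologous recombination and Fanconi genes, 14 were lower and 4 higher in KO LPS BMS than in KO LPS cells, beside 25.5% lower and 22.3% higher over all genes tested. RBBP8, encoding the end-resection factor CtIP, had 16.5 and 18.2 CPM in KO LPS BMS cells and 37.4 and 30.2 CPM in KO LPS cells (-0.96 ± 0.12, adjusted p = 1.2e-06), and PALB2, the partner of BRCA2, was higher (0.69 ± 0.10, adjusted p = 8.4e-06). Of 25 phagocytic and Fc receptor genes, 12 were higher and 5 lower. COLEC12, a scavenger receptor, had 139 and 136 CPM in KO LPS BMS cells and 68.2 and 68.4 CPM in KO LPS cells (1.01 ± 0.06, adjusted p = 3.3e-11), and FCGR1A, the high-affinity IgG receptor, whose reads can be shared with close copies, was lower (-0.92 ± 0.08, adjusted p = 3.5e-09). Of 21 complement genes, 10 were higher and 5 lower, with C1QB of the initiating complex higher (0.41 ± 0.06) and the central component C3 lower (-0.51 ± 0.05).

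Of 16 Notch pathway genes, 6 were higher and 1 lower, a median of 0.07 that turned to -0.01 when libraries were scaled by their size alone. JAG1, a Notch ligand, had 139 and 128 CPM in KO LPS BMS cells and 58.9 and 54.1 CPM in KO LPS cells (1.24 ± 0.08, adjusted p = 3.5e-11). The 1 lower member was HES4 (-1.29 ± 0.51, adjusted p = 0.035), which was not called without KO LPS BMS replicate 1, without KO LPS BMS replicate 2 or without KO LPS replicate 2. For 3 further lists, of oxidative stress and NRF2, of integrated stress, and of prostaglandins, the medians lay near that of all genes and changed sign with the scaling of libraries, so their counts are given without a direction for the list. Of 21 oxidative stress and NRF2 genes, 8 were lower and 7 higher. NFE2L2, which encodes NRF2, had 451 and 476 CPM in KO LPS BMS cells and 261 and 236 CPM in KO LPS cells (0.90 ± 0.06, adjusted p = 9.6e-11). Of 28 integrated stress and unfolded protein response genes, 10 were lower and 7 higher, with the phosphatase subunit PPP1R15A higher (0.74 ± 0.07) and the chaperone HSPA5 lower (-0.39 ± 0.05). Of 16 prostaglandin and leukotriene genes, 6 were higher and 4 lower, with ALOX5AP, the activating protein of 5-lipoxygenase, higher (0.65 ± 0.05) and the lipase PLA2G7 lower (-0.75 ± 0.06). Of 16 metal handling genes, 6 were lower and 3 higher, and NCOA4, the receptor for ferritin degradation, was among those that rose (0.72 ± 0.06).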
